A study of Mus musculus with 24 samples.

Results

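The ARID1B peak list of the mouse neocortex at E15.5 (E, embryonic day) holds 71442 peaks, and the 70709 of these on chromosomes 1 to 19 are described here. They are all peaks of that list on the autosomes, of 311477 autosomal peaks in the 6 lists of the series (3 antibodies at 2 stages). Chromatin immunoprecipitation sequencing (ChIP-seq) pulls down chromatin fragments with an antibody, and peaks are stretches of the genome with more reads of these fragments than a background level. Here that level was a single value for the whole genome, so that no peak or fold enrichment was corrected for the input reads at its own locus. The list rests on 2 ARID1B ChIP libraries and 2 input libraries from the cortex of wild-type mice, which the methods give as being on a CD1 background. No gene was changed and no agent was given in either group. By the methods, the reads of both replicates were merged before the peaks were called, although the list is deposited under replicate 1 alone. Every value below is a single value without a spread between replicates and without a test. Intervals cover counting error only.

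ARID1B is a DNA-binding subunit of the BAF (SWI/SNF) complex, which slides and evicts nucleosomes with energy from ATP and opens enhancers and promoters to other proteins. ARID1B and its paralog ARID1A exclude each other from a complex, and loss of a copy of ARID1B in humans causes Coffin-Siris syndrome and is a frequent finding in intellectual disability and autism. Its ARID domain binds DNA with little preference for a sequence. BAF is brought to its sites mainly by transcription factors and by modified histones. In the cortex at E15.5, radial glia and intermediate progenitors are producing projection neurons.

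The fold enrichment at a summit was 2.33 to 23.8, with a median of 3.84 (quartiles 3.13 and 5.17). It is the number of ChIP reads over the summit, scaled by 0.856 to the depth of the smaller library, with 1 added, over the background of 8.63 reads with 1 added. A single read thus moved it by 0.0889. The summits held 25 to 267 ChIP reads, with a median of 42. Of the peaks, 51897 (73.4%) had a fold enrichment under 5, and 1763 (2.49%) reached 10. The peaks had a median width of 473 bp (quartiles 303 and 776), and together they covered 42.9 Mb, or 1.79% of the autosomal bases. The number per Mb lay between 24.3 on chromosome 14 and 38.5 on chromosome 11. Weaker sites were not detectable at this depth.

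The sequences under 5 of the strongest peaks outside promoters are shown first, so that the words counted below can be seen in place or found missing. Each is the 200 bp around the summit on the plus strand of GRCm38. Capitals mark any of 10 words on either strand. These are the E-box words CAGATG and CAGCTG, the nuclear factor I (NFI) word CTTGGCA, the forkhead word TGTTTAC, the homeodomain word TAATTA, the RFX word GTTGCCATG, the GC box GGGCGG, the ETS word CCGGAAGT, the CTCF word AGGGGGCGC, and the YY1 word AAGATGGCG.
Gm35024, between genes, chr9:79004710-79004909: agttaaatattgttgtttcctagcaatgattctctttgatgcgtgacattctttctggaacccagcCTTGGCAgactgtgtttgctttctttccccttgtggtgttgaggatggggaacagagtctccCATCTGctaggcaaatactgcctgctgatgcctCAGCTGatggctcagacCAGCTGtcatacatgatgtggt
Ebf1, intron, chr11:44626080-44626279: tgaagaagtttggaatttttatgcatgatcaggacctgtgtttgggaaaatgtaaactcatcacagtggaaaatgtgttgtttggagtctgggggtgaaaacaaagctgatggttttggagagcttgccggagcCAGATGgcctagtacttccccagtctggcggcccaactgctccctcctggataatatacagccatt
Olig3, upstream, chr10:19277299-19277498: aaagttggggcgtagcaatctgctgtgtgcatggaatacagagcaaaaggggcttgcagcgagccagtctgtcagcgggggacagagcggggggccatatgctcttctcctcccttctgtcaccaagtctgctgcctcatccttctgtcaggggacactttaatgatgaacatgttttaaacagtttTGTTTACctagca
Triqk, nearest coding gene, chr4:13146948-13147147: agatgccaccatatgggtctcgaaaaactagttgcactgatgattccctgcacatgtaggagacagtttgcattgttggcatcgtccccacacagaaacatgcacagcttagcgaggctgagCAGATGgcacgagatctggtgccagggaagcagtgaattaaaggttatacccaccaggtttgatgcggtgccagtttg
Olig3, downstream, chr10:19471653-19471852: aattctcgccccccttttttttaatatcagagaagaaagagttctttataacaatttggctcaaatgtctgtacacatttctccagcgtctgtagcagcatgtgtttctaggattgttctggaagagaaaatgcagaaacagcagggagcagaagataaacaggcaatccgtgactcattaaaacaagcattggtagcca
The strongest window held 1 CAGATG, 2 CAGCTG, and 1 NFI word. The windows of Ebf1 and of the peak nearest Triqk held 1 CAGATG each. The first window near Olig3 held no E-box word but 1 forkhead word, and the second held none of the 10 words.

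The next 7 windows are from peaks that overlap a promoter. The first 3 are the strongest protein-coding promoters with a summit within 250 bp of a transcription start site (TSS) outside the crowded blocks described further on. Those of Nfia, Hes6, and Foxp2 are the highest among the genes of young neurons, intermediate progenitors, and deep-layer neurons, and the last belongs to Arid1b itself. The summit at Nfia lay 412 bp downstream of the nearest TSS, so the window shown for Nfia lies past that TSS.
Mapkapk5, promoter, chr5:121545791-121545990: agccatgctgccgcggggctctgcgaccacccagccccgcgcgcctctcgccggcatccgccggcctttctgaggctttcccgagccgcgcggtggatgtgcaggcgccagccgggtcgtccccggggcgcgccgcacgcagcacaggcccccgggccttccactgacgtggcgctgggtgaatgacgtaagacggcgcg
Rad17, promoter, chr13:100651052-100651251: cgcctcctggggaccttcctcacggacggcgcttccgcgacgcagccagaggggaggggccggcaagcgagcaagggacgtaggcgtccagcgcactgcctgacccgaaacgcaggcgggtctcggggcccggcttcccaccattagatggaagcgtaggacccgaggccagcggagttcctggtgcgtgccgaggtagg
Tsn, promoter, chr1:118311192-118311391: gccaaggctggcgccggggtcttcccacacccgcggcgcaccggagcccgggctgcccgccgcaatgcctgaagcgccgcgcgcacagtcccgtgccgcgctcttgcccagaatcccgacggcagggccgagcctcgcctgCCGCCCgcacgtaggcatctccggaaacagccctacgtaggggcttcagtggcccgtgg
Nfia, promoter, chr4:97880431-97880630: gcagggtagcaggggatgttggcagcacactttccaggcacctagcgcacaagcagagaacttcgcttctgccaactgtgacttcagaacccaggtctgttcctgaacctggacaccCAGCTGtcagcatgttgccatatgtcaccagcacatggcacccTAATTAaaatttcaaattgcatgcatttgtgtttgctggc
Hes6, promoter, chr1:91414224-91414423: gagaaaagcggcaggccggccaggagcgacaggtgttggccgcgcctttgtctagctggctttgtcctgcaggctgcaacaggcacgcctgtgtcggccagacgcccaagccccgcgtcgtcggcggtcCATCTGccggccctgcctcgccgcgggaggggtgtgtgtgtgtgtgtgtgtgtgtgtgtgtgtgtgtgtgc
Foxp2, promoter, chr6:14900751-14900950: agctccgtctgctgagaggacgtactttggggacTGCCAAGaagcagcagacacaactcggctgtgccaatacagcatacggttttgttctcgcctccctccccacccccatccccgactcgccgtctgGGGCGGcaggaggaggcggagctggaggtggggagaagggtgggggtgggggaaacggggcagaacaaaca
Arid1b, promoter, chr17:4994216-4994415: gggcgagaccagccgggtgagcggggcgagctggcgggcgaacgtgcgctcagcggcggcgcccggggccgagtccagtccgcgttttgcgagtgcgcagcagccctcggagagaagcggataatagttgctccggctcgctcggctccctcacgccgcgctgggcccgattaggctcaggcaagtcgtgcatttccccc
The promoters of Mapkapk5, Rad17, and Arid1b held none of the 10 words, and 70.0% or more of the bases of these windows were G or C. Tsn had 1 GC box, Nfia 1 CAGCTG and 1 homeodomain word, Hes6 1 CAGATG, and Foxp2 1 NFI word and 1 GC box. A match to a word is a description and not a binding site.

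Among the 30 strongest peaks, 12 had their summit in an intron, 10 lay between genes, 6 overlapped a promoter, 1 lay in a coding exon, and 1 in another exon. All 30 had counting intervals that overlapped that of the strongest peak, so their order is not resolved. The strongest peak (chr9:79004290-79005113, GRCm38) had 267 reads at its summit and a fold enrichment of 23.8 (95% exact Poisson interval 21.1 to 26.9). It lay between genes, 24942 bp from the start of the long non-coding RNA gene Gm35024. The nearest protein-coding gene was Cd109, which encodes a surface protein that binds TGF-β, at 389264 bp.

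Several of these peaks lay in, or had as their nearest coding gene, a gene of a transcription factor. These genes were picked out after the peaks were seen, and some were far from the summit. An intron of Ebf1, a helix-loop-helix factor of neuronal and B cell differentiation, held a peak of 23.0 (20.3 to 26.0), and an intron of its paralog Ebf3 held a peak of 20.01 (17.5 to 22.8). Olig3, a basic helix-loop-helix factor of early neural progenitors, was the nearest coding gene of a peak of 22.5 at 79134 bp upstream and of a peak of 21.6 at 115220 bp downstream. Introns of Zfhx3, a homeodomain factor, and of Npas3, a PAS-domain factor of the brain, held peaks of 20.7 and 19.7, the former at 343586 bp from the coding TSS. Sall1, a zinc finger factor, was the nearest coding gene of a peak of 20.7 at 470321 bp upstream.

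Some peaks were linked to receptor or ligand genes by position alone, and these genes too were picked out after the peaks were seen. A peak of 21.3 lay 186624 bp upstream of Robo2, a receptor for Slit proteins. Nrp2, a receptor for semaphorins, was the nearest coding gene of a peak of 20.4 in an intron of Pard3b, 487188 bp away. Erbb4, a receptor for neuregulins, had a peak of 20.5 in an intron at 801715 bp from the coding TSS, and Nrg1, which encodes such a ligand, had a peak of 19.7 in an intron. The remaining peaks of the 30 with a summit in a gene included Cachd1 (21.4, intron), the tyrosine kinase adaptor gene Skap2 (20.01, intron), and the cell-cycle phosphatase gene Cdkn3 (20.5, coding exon). For 14 of the 30 the nearest gene of any kind was protein-coding.

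The strongest protein-coding promoter was that of Mapkapk5, a kinase downstream of p38 (chr5:121545697-121546386), at 21.6 (18.99 to 24.5). It was followed by Cwc22, a splicing factor gene within a crowded block, at 20.99, and by Rad17, which loads the checkpoint clamp onto damaged DNA and shares its promoter with Ak6, at 20.01. Rgs3, a regulator of G protein signaling, reached 19.6, and Tsn, which encodes translin, and Mcm9, a helicase gene of DNA repair, both reached 19.4.

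**Figure D1:**
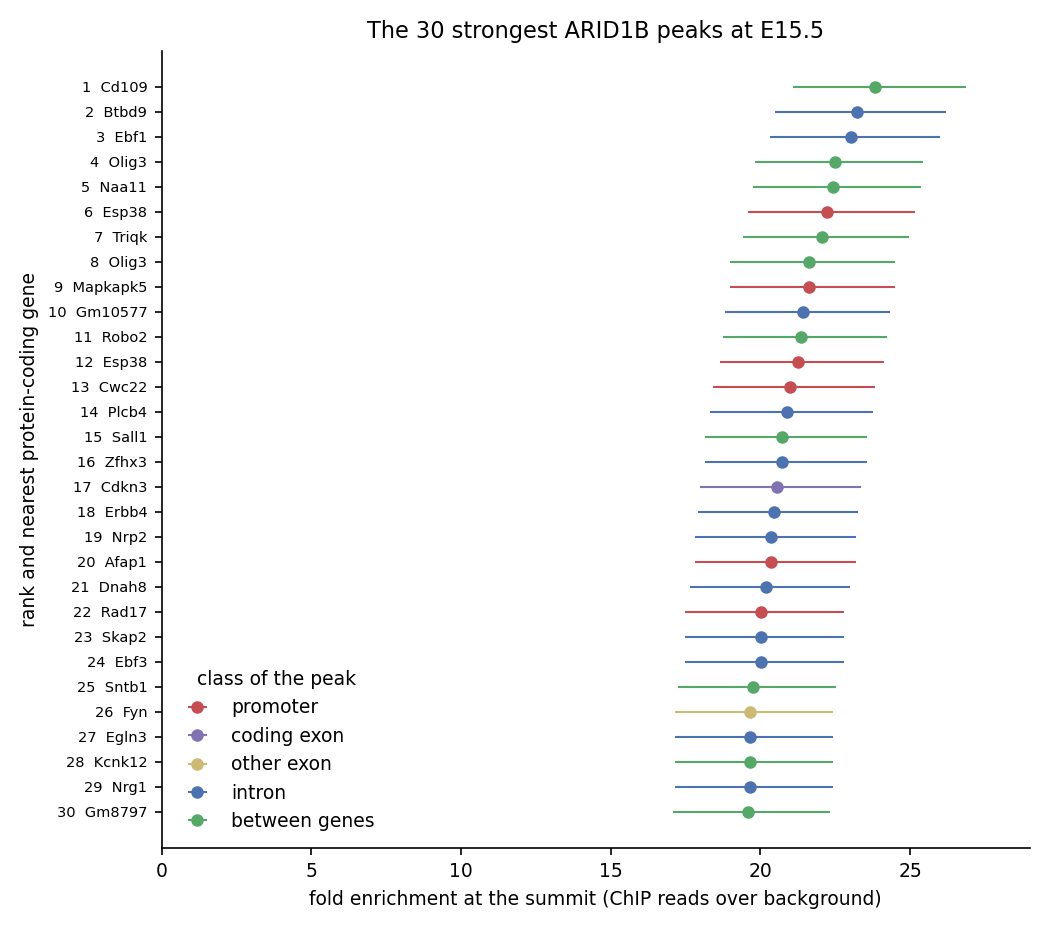
Fold enrichment at the summit (x axis, depth-scaled reads over background) of the 30 strongest autosomal ARID1B peaks at E15.5, by rank and nearest protein-coding gene (y axis). Points are colored by the class of the peak and bars are 95% exact Poisson intervals of the reads; the values fall from 23.8 to 19.6 and all intervals overlap that of the strongest peak.

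Each peak was given a class. Proximal peaks, called promoter peaks here, shared at least 1 base with the 2000 bp before a TSS of any gene, and all others were classed by the base at their summit. Promoter peaks numbered 18957 (26.8%, 95% Wilson interval 26.5 to 27.1), peaks in introns 27399 (38.7%), and peaks between genes 21287 (30.1%). Another 2019 (2.86%) lay in non-coding exons or untranslated parts of exons and 1047 (1.48%) in coding exons. By the position of the summit alone, promoters held 99.4 summits per Mb, coding exons 60.9, other exons 51.8, introns 29.5, and the sequence between genes 18.2.

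Promoter peaks were wider and somewhat stronger than the rest. Their median fold enrichment was 4.46 (quartiles 3.48 and 5.70) and their median width 752 bp, against 3.66 (3.13 and 4.81) and 418 bp for all other peaks. A peak needed only 1 base in a promoter for this class, so wide peaks entered it more readily. The summits of 15261 peaks lay in a promoter, and widths were not compared by summit alone. A median of 62.0% of the bases around promoter summits was G or C, against 47.0% elsewhere, and the ratio of observed to expected CpG was 0.702 against 0.245. The highest value was 23.8 between genes, 23.2 in an intron, and 22.2 at a promoter, with counting intervals that overlapped, and the last 2 of these peaks lay in the crowded blocks.

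The share of promoter peaks did not follow strength in a single direction. It was 16.4% among the 1000 strongest peaks and 28.98% among the strongest 10%. It was highest in the next 10% of peaks, with fold enrichments of 5.53 to 6.86, at 45.0%. It then fell through 40.4% and 33.6% to 17.2% in the weakest 10%. Introns held 40.2% of the 1000 strongest peaks, 28.7% at fold enrichments of 5.53 to 6.86, and 46.7% of the weakest 10%. Coding exons rose from 0.509% of the strongest 10% to 2.31% of the weakest.

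**Figure D2:**
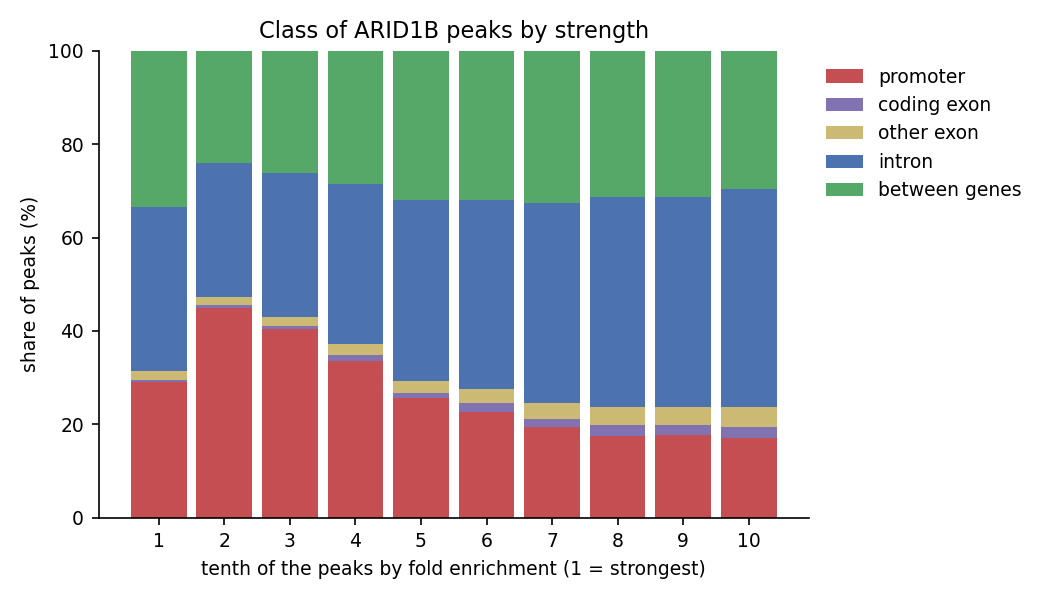
Share of ARID1B peaks in each class (y axis, %) for 10 groups of equal size by fold enrichment (x axis, strongest first). Promoter peaks make up 28.98% of the strongest group, 45.0% of the next, and 17.2% of the weakest.

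Summits lay at all distances from a TSS. Within 250 bp of the nearest TSS lay 12930 summits (18.3%), and their median fold enrichment was 4.90 upstream and 4.73 downstream. At 250 to 1000 bp the medians were 3.75 upstream (2878 summits) and 3.39 downstream (3406). At 1 to 2 kb there were 1618 upstream and 2159 downstream, and at 2 to 10 kb there were 7174 and 7937, with medians of 3.66 and 3.57. Another 13353 summits lay 10 to 100 kb upstream of the nearest TSS and 15493 lay as far downstream, both with a median fold enrichment of 3.75. Another 3777 summits (5.34%) were over 100 kb from any TSS. The median distance was 8056 bp.

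ARID1B has no consensus of its own, so 23 short words that other proteins bind were counted on both strands in the 200 bp around each summit. The share with each word was set beside that in all 11979192 windows of this length on the autosomes, and in the 200 bp upstream of all 125895 TSSs. Neither set of windows was matched to the summits in its share of G and C. No word lay within another.

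Outside promoters, the E-box word CAGATG, which NeuroD and Neurogenin proteins bind, was present at 34.4% of summits, against 15.04% of all windows. The E-box word CAGCTG, which E proteins bind, was present at 20.97% against 7.37%. The NFI word CTTGGCA was present at 9.19% against 3.08%, and the RFX word GTTGCCATG at 0.835% against 0.202%. The GC box was present at 6.33% against 2.01%. The homeodomain word TAATTA was at 10.8% against 7.15%, the octamer ATGCAAAT of POU proteins at 2.59% against 1.70%, and the forkhead word TGTTTAC at 4.09% against 2.98%. The CTCF word AGGGGGCGC was rare but present at 0.334% against 0.04% of windows. Words whose share was near the genome's included TGANTCA of AP-1 (5.99% against 5.96%), TAAAAATAG of MEF2 (0.614% against 0.571%), and AGGTGTGA of T-box proteins (0.904% against 0.783%). Below it were AACAATG of SOX proteins (3.08% against 3.95%), ATCAAAG of TCF/LEF proteins (2.93% against 4.05%), the YY1 word (0.0966% against 0.208%), and the control repeat GAGAGAGAG (1.70% against 2.204%). The control repeat CACACACAC was at 4.25% against 4.30%.

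Outside promoters, the E-box share followed strength. CAGATG was present at 59.6% of the 1000 strongest summits outside promoters and at 23.9% of the 10000 weakest. In promoter peaks it was 20.9% of the 1000 strongest of them, against 13.7% of all, but it had no single direction over 10 groups by strength. It was 16.8% of those in the strongest 10% of peaks, 13.8% of those in the weakest 10%, and 9.74% to 17.8% in the groups between. For the 1000 strongest and the 10000 weakest peaks outside promoters, the mean share of G and C in the windows was 47.3% and 48.4%. At least 2 copies of CAGATG were present at 17.3% and 3.19% of these summits, in the same order. Either E-box word was present at 73.7% and 37.3%. Outside promoters, peaks without CAGATG had a median fold enrichment of 3.48 (n = 33941 peaks), those with 1 copy 3.93 (n = 14652), and those with 2 copies 4.37 (n = 2839). It was 4.55 with 3 copies (n = 274) and 4.33 with 4 or more (n = 46). The NFI word was present at 13.8% of the 1000 strongest and 7.11% of the 10000 weakest, and the forkhead word at 6.90% and 3.42%.

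**Figure D3:**
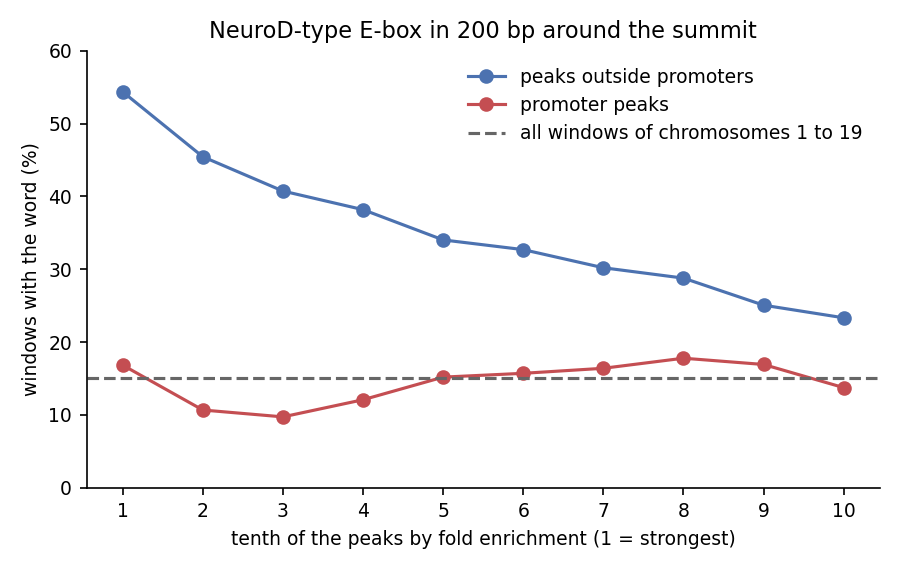
Share of 200 bp summit windows with the NeuroD-type E-box word (y axis, %) in 10 groups of equal size by fold enrichment (x axis, strongest first), for peaks outside promoters and promoter peaks. The dashed line is the 15.04% of all autosomal windows; outside promoters the share falls from 54.4% to 23.3%.

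The E-box words were most frequent at the summits. Outside promoters, CAGATG occurred 2.67 times per kb within 40 bp of the summit and 0.826 times per kb at 400 to 500 bp. CAGCTG occurred 1.48 and 0.479 times per kb, and the NFI word 0.548 and 0.201 times. In promoter peaks the same step was smaller for CAGATG (0.898 and 0.604 times per kb). There the GC box GGGCGG, which Sp and Klf proteins bind, occurred 3.35 and 1.56 times per kb, with a flat top some 200 bp to either side of the summit.

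**Figure D4:**
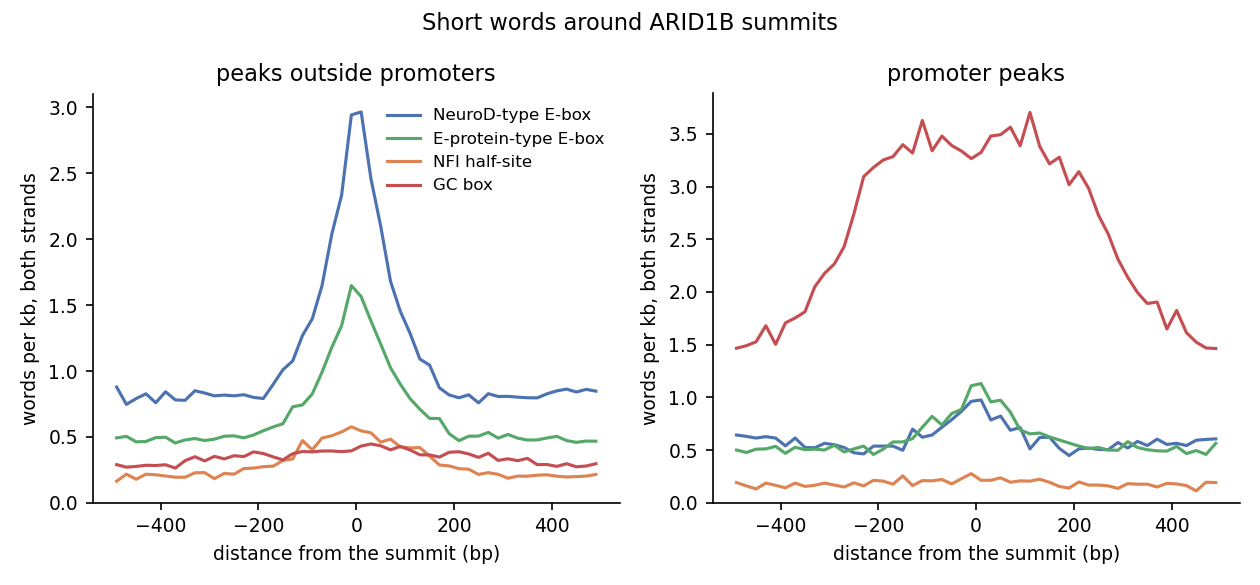
Words per kb on both strands (y axis) by distance from the summit in 20 bp steps (x axis), for peaks outside promoters (left) and promoter peaks (right); the axes differ in scale. The NeuroD-type E-box is 2.67 per kb within 40 bp of the summit outside promoters, and the GC box is the most frequent word in promoter peaks, with 3.35 per kb there.

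At promoter peaks, some words of general promoter proteins were above their share upstream of TSSs and others were below it. The GC box was present at 39.5% of summits, against 27.05% of windows upstream of a TSS. ETS words (CCGGAAGT) were at 3.09% against 2.75%, the YY1 word AAGATGGCG at 1.40% against 0.629%, the NRF1 word GCGCATGCG at 1.32% against 1.18%, and the CTCF word at 1.35% against 0.812%. The RFX word was at 0.733% against 0.435%. The E-box word CACGTG of Myc and Usf proteins was at 5.69% against 4.59%, and CAGCTG at 15.9% against 10.9%. The cyclic AMP response word TGACGTCA was at 1.27% against 1.36%. The NFY word CCAATCA was at 3.12% against 5.10%, and CTACAATTC of ZNF143 and THAP11 at 0.158% against 0.292%. CAGATG was at 13.7% against 11.8%, and it was present at 34.8% of the 164 promoter peaks among the 1000 strongest peaks. The simple repeats CACACACAC and GAGAGAGAG, counted as controls, were at 2.51% and 1.498%, against 2.46% and 1.75% upstream of TSSs.

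Of 20807 autosomal protein-coding genes, 12667 (60.9%) had a promoter peak, and the highest such peak of a gene had a median fold enrichment of 5.26. Other kinds of gene had them less often. They were found at 943 of 2913 antisense genes (32.4%), 1094 of 5209 long intergenic non-coding RNA genes, 347 of 2054 miRNA genes (16.9%), and 301 of 8924 processed pseudogenes (3.37%). Outside promoters, peaks were unevenly shared among coding genes when each was given to its nearest coding gene. No such peak was nearest to 11643 coding genes (56.0%), whereas the 1502 genes with 10 or more (7.22%) took 57.8% of them. The number depends on the space around a gene, which was not matched.

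In the 5 lists of radial glia, intermediate progenitors, deep and upper layers, and young neurons, every autosomal gene had a promoter peak, against 60.9% of all coding genes. All 18 radial glia genes did, with Fabp7, a fatty acid binding protein, at 8.46 and the stem cell factor Sox9 at 7.39. So did all 12 genes of intermediate progenitors, led by Hes6, an inhibitor of Hes1, at 12.5 and the proneural factor gene Neurod1 at 9.97. The T-box factor gene Eomes, the marker of these cells, had a promoter peak of 4.99. Eomes was also the nearest coding gene of a peak of 17.9 at 22622 bp upstream. The nearest gene of any kind to that peak was the non-coding RNA gene Gm22479, at 11474 bp. All 14 deep-layer genes had a promoter peak, led by the forkhead factor gene Foxp2 (13.7) and the co-repressor gene Tle4 (8.81). All 14 upper-layer genes did as well, led by the helix-loop-helix factor gene Bhlhe22 (9.17) and the POU factor gene Pou3f2 (7.93). Of 18 genes of most young neurons, all did, from Nfia (18.1) and Neurod2 (9.61) to Stmn2, which encodes a microtubule-binding protein (3.84). The highest promoter peak of a gene had a median of 4.64 for radial glia and 4.73 for deep-layer genes. It was 5.48 for intermediate progenitors, 5.97 for upper-layer genes, and 6.10 for young neurons, against 5.26 over all coding genes with one.

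These genes also stood near many peaks outside promoters, with each peak given to its nearest coding gene and non-coding genes passed over. The median number of such peaks per gene was 21.5 for deep-layer genes, 19 for upper-layer genes, and 16.0 for genes of young neurons. It was 11 for radial glia genes, 6.0 for genes of intermediate progenitors, 9.0 for Cajal-Retzius genes, and 5.5 for interneuron genes. It was 3.0 for genes of the oligodendrocyte lineage, 2.0 for astrocyte genes, and 0.0 over all coding genes. Single genes of other lists also had many, such as the cell-cycle gene Mki67 (32) and the liver gene Apob (27). The space around a gene was not matched. By nearest coding gene, Celf2, an RNA-binding protein gene, had 107, the nuclear factor I gene Nfib 85, the POU factor gene Pou3f3 65, the deep-layer factor gene Sox5 64, and Sox9 48. By nearest gene of any kind, and with promoter peaks included, Celf2 had 59, Sox5 39, Nfib 10, and Sox9 5.

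Among lists of other cells and tissues, the 95% Wilson intervals of interneuron (54.8 to 91.0%), Cajal-Retzius (52.9 to 97.8%), astrocyte (30.6 to 86.3%), and oligodendrocyte lineage genes (12.1 to 64.6%) all held the 60.9% of all coding genes. The intervals of the others lay below it. Interneuron genes had 14 of 18, and the 4 without were Lhx6 and Nkx2-1, factors of the medial ganglionic eminence, the neuropeptide gene Sst, and Adarb2. Of 8 Cajal-Retzius genes, 7 had a promoter peak, led by Nhlh2 at 6.59, and Lhx5 had none. Astrocyte genes had 5 of 8 (none at Agt, Aldh1l1, and S100b), and genes of the oligodendrocyte lineage 3 of 9 (none at Cspg4, Mag, Mog, Myrf, Olig1, and Sox10). Endothelial and mural genes had 4 of 13, the highest being Flt1 and Vwf at 3.13, and microglia genes 2 of 12, with Tmem119 at 6.33. Red blood cell genes had 2 of 9, Epor among them, with no promoter peak at any globin gene of the list. Muscle genes had 4 of 15, germ line genes 2 of 13, and liver genes 0 of 13 (95% Wilson interval up to 22.8%). A promoter peak is not a measure of expression.

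**Figure D5:**
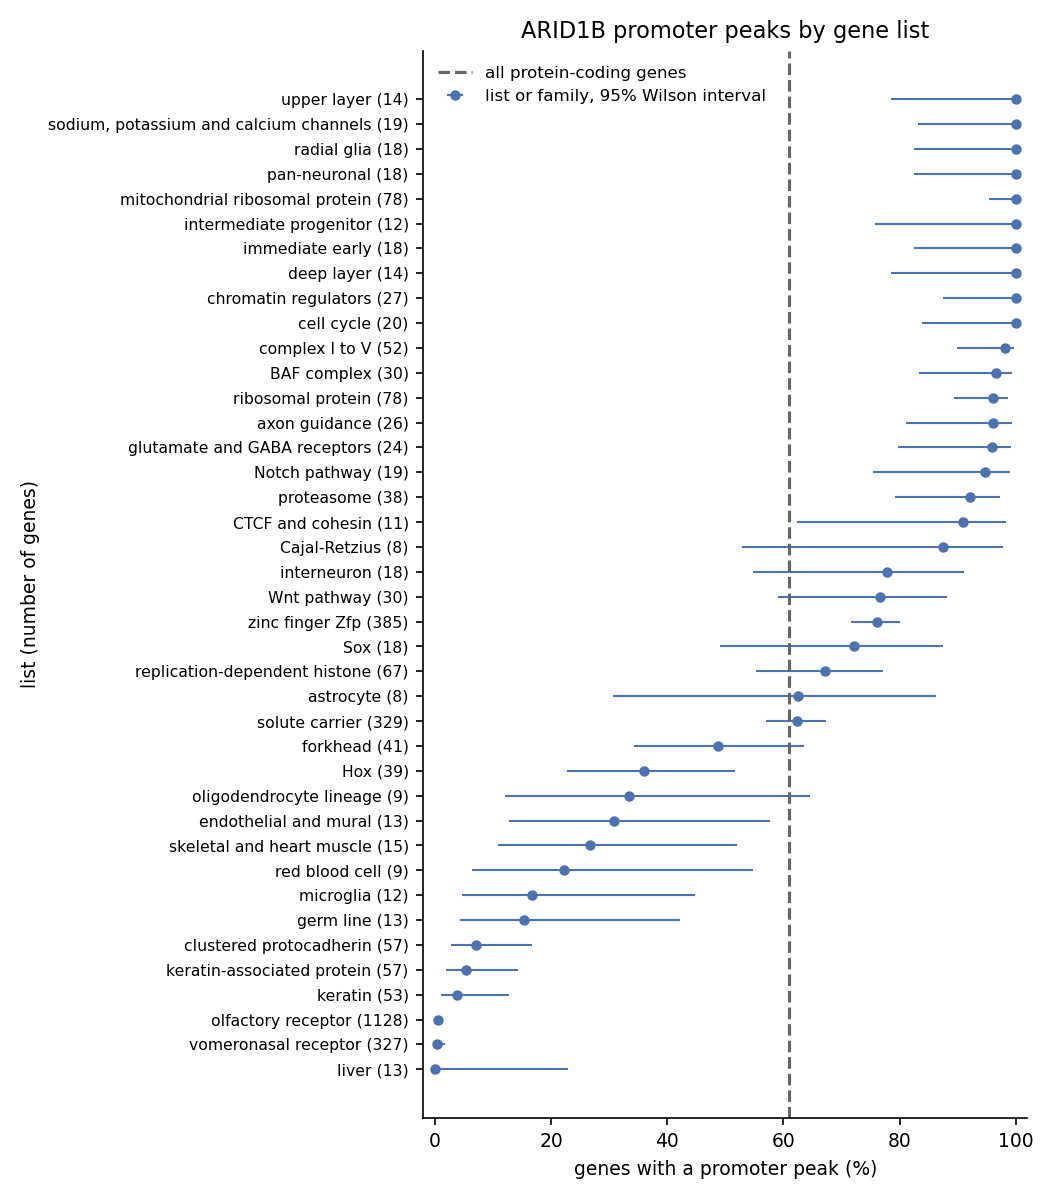
Share of the genes of each list or family with an ARID1B promoter peak (x axis, %), with the number of autosomal genes in brackets (y axis). Points are shares and bars 95% Wilson intervals of the count; the dashed line is the 60.9% of all protein-coding genes, with radial glia, intermediate progenitor, deep-layer, upper-layer, and young neuron genes at 100% and liver genes at 0.0%.

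The counts by function stand against the 60.9% of all coding genes with a promoter peak and their median of 5.26. All 27 chromatin regulators outside BAF had one, with a median of 6.86, led by the histone methyltransferase gene Kmt2a (13.1) and the remodeler gene Chd2 (11.1). All 78 mitochondrial ribosomal protein genes had one (median 5.79), as did 75 of 78 ribosomal protein genes (6.06), 51 of 52 genes of the respiratory chain and ATP synthase (5.79), and 35 of 38 proteasome genes (6.06). All 20 cell-cycle genes had one (4.37), led by Cdk4 at 8.64. Of genes of chromatin loops, 10 of 11 had one (6.28), led by the cohesin gene Stag1 at 11.04, and Ctcfl, the germ line paralog of Ctcf, had none. Immediate early genes had 18 of 18 (4.95), led by Jund at 9.53.

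In the Notch pathway, 18 of 19 genes had a promoter peak (median 4.68). They were led by Rbpj, the factor that carries the signal on DNA, at 7.30, and the ligand gene Dll3 at 6.95, and Heyl had none. In the Wnt pathway it was 23 of 30 (4.99), and the interval of this share (59.1 to 88.2%) held the 60.9% of all coding genes. Ctnnb1, which encodes β-catenin, had 9.97, and the receptor gene Fzd1 and the kinase gene Gsk3b both had 7.66. The ligand genes Wnt2b, Wnt3a, Wnt4, and Wnt8b had none, nor had Dkk1, Dkk3, and Rnf43. An intron of Tcf7l2, which encodes a factor of this pathway, held a peak of 18.8. Axon guidance genes had 25 of 26 (5.26), led by the ligand gene Slit1 at 7.93 and the ephrin gene Efnb2 at 7.75, and Slit3 had none. By nearest coding gene, they had a median of 22.5 peaks outside promoters, with 73 for the receptor gene Robo1 and 65 for Epha4. By nearest gene of any kind, and with promoter peaks included, Robo1 had 42 and Epha4 20. All 19 voltage-gated channel genes had a promoter peak (4.37), led by Cacna1b at 9.44, as did 23 of 24 glutamate and GABA receptor genes (4.01), led by the AMPA receptor gene Gria2 at 8.01.

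Large families of genes for sensory cells and skin had almost no promoter peaks. Olfactory receptor genes had 5 of 1128 (0.443%), vomeronasal receptor genes 1 of 327, keratin genes 2 of 53, and keratin-associated protein genes 3 of 57. Clustered protocadherin genes, which neurons use to tell self from other, had 4 of 57, and these were Pcdhac1, Pcdhac2, Pcdhgc3, and Pcdhgc4 of the C type. Hox genes, which pattern the body behind the forebrain, had 14 of 39 (35.9%), at most 4.90 at Hoxa4. Forkhead genes had 20 of 41, led by Foxp2 and Foxp4 (12.5), and Sox genes 13 of 18, led by Sox11 at 8.55. Zinc finger genes named Zfp had 293 of 385 (76.1%), solute carrier genes 205 of 329 (62.3%), and replication-dependent histone genes 45 of 67 (67.2%), where near-identical copies can lose reads to the filter on mapping quality. The shares of forkhead, Sox, solute carrier, and histone genes had intervals that held the 60.9% of all coding genes.

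The genes of the BAF complex itself had a promoter peak in 29 of 30 cases, against 60.9% of all coding genes, with a median of 6.15, against 5.26. The highest was that of Arid1a, the paralog of Arid1b, at 11.2. The ATPase genes Smarca4 and Smarca2 had 6.50 and 7.04. The core subunit genes Smarcb1, Smarcc1, Smarcc2, and Smarce1 had 5.88, 6.86, 4.37, and 6.15, and Smarcd1, Smarcd2, and Smarcd3 had 8.19, 6.59, and 8.81. Of the subunits exchanged when progenitors become neurons, the progenitor forms Actl6a and Ss18 had 5.70 and 6.86, and the neuronal forms Actl6b, Ss18l1, Dpf1, and Dpf3 had 5.70, 7.21, 5.53, and 3.93. Phf10, a progenitor form, was the only BAF gene without a promoter peak, and Dpf2, of the same group, had 5.35. Bcl7a, Bcl7b, and Bcl7c had 7.30, 6.77, and 5.26. Among subunits of related complexes, Arid2 and Pbrm1 of PBAF had 6.24 and 6.86, Brd7 4.64, Brd9 5.53, Bicra 4.28, and Bicral 8.19. Bcl11a and Bcl11b, zinc finger factors of cortical neurons that join BAF, had 5.79 and 3.66 at the promoter. They were the nearest coding genes of 60 and 39 peaks outside promoters. By nearest gene of any kind they had 14 and 29 peaks, promoter peaks included.

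Arid1b (chr17:4994332-5347656) had 3 promoter peaks, at 5.70, 3.39, and 5.44, and 45 peaks in its introns. The strongest of all 48 was an intron peak of 13.6 (chr17:5083410-5084848), with 2 copies of CAGATG in the 200 bp around its summit. A second intron peak (chr17:5286236-5287370) reached 10.1, with 2 copies of CAGATG and 1 of CAGCTG. The median over the 48 was 3.39.

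Some genes held many peaks along their bodies, and the rate over all bases was 2.95 peaks per 100 kb. These genes were picked by their number of peaks, which favors long genes. Some shorter genes held more per 100 kb, such as Dpf1 (56.0) and Smarcd2 (40.8). Gse1, which encodes a component of a histone deacetylase complex, held 111 peaks or 31.5 per 100 kb. Tcf4, which encodes an E protein that pairs with NeuroD, held 86 (24.9 per 100 kb). Nfib held 74 (17.8), the teneurin gene Tenm4 109 (14.7), and Auts2, a gene of neuronal development linked to autism, 140 (12.7). Celf2 held 85 (8.76), the reelin adaptor gene Dab1 76 (6.75), and Tenm2 80 (6.51). The gene models Gm20388 (342 peaks) and Fgfr2 (159) span 4435 and 2961 kb in GENCODE vM21 and hold other genes. By nearest TSS of any gene, Tcf4 led with 89 peaks. It was followed by the splicing factor gene Rbfox1 (66), Celf2 (59), Gse1 (54), Dnah8 (53), Tenm4 (50), Pde4d (48), Tenm2 (46), Tox3 (45), and Dab1 (43). The most crowded window of 100 kb (chr8:84700000-84799999) held 43 peaks around Nfix, another nuclear factor I gene, with a fold enrichment of at most 11.8.

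Most of the widest peaks came from a few blocks. Of the 10 widest, 7 lay in 265 kb around Cwc22 on chromosome 2 (77781159 to 78046375), where 21 peaks covered 47.0% of the bases and the widest spanned 32873 bp. The others of the 10 were 2 peaks at Sfi1, a centrosome gene (6469 and 6193 bp), and 1 near the lincRNA gene Gm10655, where Tle3 is the nearest coding gene (6430 bp). In 662 kb of chromosome 17 from Btbd9 to Dnah8, 133 peaks covered 13.6% of the bases, with up to 23.2 in an intron of Btbd9 and 20.2 in an intron of Dnah8. At the ribosomal RNA locus of the same chromosome (39841353 to 39853827), which holds Gm26917 and CT010467.1, 3 peaks covered 45.7% of 12 kb and reached 22.2. These 4 blocks held 166 peaks in all, of which 5 were among the 30 strongest. The lists of the other antibodies at E15.5, which were made from their own input libraries, also had peaks in each block. Around Cwc22 there were 59 peaks of FOXP1, up to 35.9, and 106 of the antibody labelled TCF4, up to 12.5. Whether the mice carry as many copies of these sequences as the reference was not tested, and this bears on the fold enrichments of these peaks. Without the blocks, the share of promoter peaks was 26.8%, as with them.

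Most of the strongest ARID1B peaks were also peaks in the other lists. Of the 1000 strongest, 1000 overlapped an ARID1B peak at E18.5 by at least 1 base, 1000 a FOXP1 peak at E15.5, and 901 a peak at E15.5 of the antibody labelled TCF4, which the methods describe as raised against TCF7L2. At E18.5, 774 overlapped a FOXP1 peak and 965 a peak of the antibody labelled TCF4. Of the weakest 10%, 36.5% overlapped an ARID1B peak at E18.5, 41.5% a FOXP1 peak at E15.5, and 15.6% a peak at E15.5 of the antibody labelled TCF4. Over all peaks, 78.2% overlapped an ARID1B peak at E18.5, and 85.6% of the peaks of that list overlapped an ARID1B peak at E15.5. For FOXP1 at E15.5 these shares were 69.4% and 75.5%, and for the antibody labelled TCF4 they were 40.5% and 89.6%. At E18.5 they were 30.8% and 89.7% for FOXP1, and 54.5% and 74.2% for the antibody labelled TCF4. The lists differ in depth and antibody, and the part of either in these shares was not tested.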

How the data were processed

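The study's methods describe cross-linked cortex, an anti-ARID1B antibody, and single-end reads aligned with BWA 0.7.15 to GRCm38 (mm10), filtered on mapping quality with SAMtools, and called with MACS2 2.2.7 against matched input without a local background. The authors compared the replicates, merged them, and called peaks again. The deposited list gives, for each peak, the fold enrichment (ratio of depth-scaled summit reads to background, with 1 added to both), the −log10 p-value and q-value deposited beside it, and a deposited score, which was not used.

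From these, the depth was recovered through the Poisson model of MACS2. All pairs of fold enrichment and p-value (100.0%) lay within 0.01 of a single background, which gives 80.7 M reads in the smaller library and 94.3 M in the ChIP library for an extension of 200 bp and a genome of 1.87 Gb. Genes and TSSs came from GENCODE vM21 and sequences from the GRCm38 reference. The methods name another GENCODE release.

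The 4 crowded blocks were chosen after seeing the data and span the named genes, with 100 kb on either side for Cwc22 and Sfi1 and 5 kb for CT010467.1. Samples were grouped by their labels. The members, gene lists, words, and rule for named genes were chosen with earlier results of these data known. The rule took the 30 strongest peaks, the 10 strongest of each class, the 10 widest, the 10 genes with the most peaks, up to 4 genes of a list with the highest promoter peak and those without one, and all BAF subunits. Other genes in the text (Eomes, Tcf7l2, Stmn2, Sox5, Pou3f3, Robo1, Epha4, Nfix, and family members) were chosen after their values were seen. A few genes of the lists and the sequence of 1 peak are not reported here. Python 3.11.15 with numpy 2.4.6, pandas 2.3.3, and scipy 1.17.1 was used. Stricter q-values, other promoter definitions, and shorter windows were tried.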

Additional observations from a re-analysis of the deposited data

Results flagged for a closer look

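The ARID1B list at E15.5 held 733 peaks outside chromosomes 1 to 19, which the results do not use and which the caller placed above the background. Of these, 686 lay on chromosome X, with a median fold enrichment of 3.57 and a highest value of 10.2, and 13 on chromosome Y, with up to 8.28. The mitochondrial genome had 3 peaks of up to 23.7, which is close to the strongest autosomal peak, and the widest spanned 6544 bp. On 5 unplaced or unlocalized sequences there were 31 peaks of up to 21.5, and 22 of them lay on a single such sequence. The caller used a single background for the whole genome, these sequences included.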

How the results depend on the processing

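No paired analysis was possible because the list holds the merged reads of both replicates. Leaving out a replicate could not be done for the same reason, as no list of a single replicate was used here. The count of 70709 peaks fell to 32900 at a −log10 q of at least 10. The promoter share (26.8%) was 28.7% and 35.6% at a −log10 q of at least 5 and 10, 21.6% with at least 50% of the peak in the promoter, 28.9% with promoters of 1000 bp on either side of a TSS, 20.5% with coding TSSs alone, and 21.6% by summit alone. The intron share (38.7%) was 37.4%, 33.0%, 40.2%, 37.2%, 41.9%, and 40.2% under the same settings in that order. The share between genes (30.1%) was 28.6% at a −log10 q of at least 10, 31.0% with at least 50% of the peak in the promoter, 30.8% with promoters on either side, and 31.5% with coding TSSs alone. The ratio of the median fold enrichment of promoter peaks to that of other peaks (1.22) was 1.19 with promoters on either side and 1.19 by summit alone. The share of all summit windows with CAGATG (28.9%) was 18.4% in 100 bp, since a shorter window holds fewer words. The number of coding genes with a promoter peak lay between 10142 and 12928 under the 5 settings tried. Without the 4 crowded blocks, a setting chosen after seeing the data, no share left its interval. The cause of the other shifts was not tested.

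Depth limits the list to summits of at least 25 reads. Fold enrichments of single peaks carry counting error, neighboring peaks are not independent, and reads without molecular identifiers are not independent molecules, so intervals cover counting error only.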
